A study of Mus musculus with 5 samples.

Results

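The Sox, Fox, Gata and T-box genes examined here are 41 developmental transcription factor genes: 13 of the Sox family, 9 Fox, 5 Gata, 10 T-box (T and Eomes among them) and 4 others, Wt1, Hand1, Hand2 and Twist1. They were taken by name, out of 49943 RefSeq genes on chromosomes 1 to 19, X and Y, and each was measured over its annotated span plus 2000 bp on either side in the mm10 build. DNA methylation was read by whole genome bisulfite sequencing, in which unmethylated cytosines are read as T, in sperm that swam out of the cauda epididymis of C57BL/6 mice. The old group, aged 18 months, had 2 libraries, and the young group, aged 2 months, had 3. The labels give no genotype or treatment beyond strain and age. Separate animals for the libraries are not stated there, and p-values here therefore speak of library-to-library spread, which may be technical.

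These proteins bind DNA through the family's shared domain (the HMG box in Sox, the forkhead in Fox, zinc fingers in Gata, the T-box in Tbx) and set cell identity in the embryo. Their genes typically start in CpG-rich sequence. In sperm, as in most mammalian cells, bulk DNA is heavily methylated, while the CpG islands of developmental regulators are known to be largely free of methylation and, in mouse sperm, to carry retained histones.

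Each library listed 5226897 to 8543414 cytosines with 5 reads or more, covered by 67774094 to 97769462 reads in all. After the strands of a CpG were merged, 13063725 CpGs were listed in at least 1 library, and 2246211 of them (17.2%) formed the common set: covered by 5 reads or more in every library, and in no library among its top 0.1% by coverage. The 41 regions held 11077 listed CpGs, of which 1459 (13.2%) were common, and 818 of these lay in the long genes Sox5 and Sox6. With 10 or more common CpGs, 15 gene regions were measured, while 12 had 1 to 9 and 14 had 0. Among those 14, Tbx1 was not analysed here. Young replicate 3 had the lowest level in 44.9% of all measured gene regions, and young replicate 2 the highest in 39.6%. As a check of the labelled cell type, the starts of 6 maternally methylated imprinted genes, which are unmethylated in sperm, were read. Their summed levels were 22.7% to 24.4% in old and 14.9% to 32.1% in young libraries. Nnat, at 9.41% to 24.9%, weighed most, with 1630 reads or more a library, where the others had 21 to 127 in their lowest library. Snrpn was at 67.7% to 84.96% and Nap1l5 at 6.25% to 57.1%. Peg3 was at 13.4% to 43.3%, Kcnq1ot1 at 0% to 40.2% and Plagl1 at 9.09% to 40%. Under 20% were 2 and 3 of the 6 in old and 2, 3 and 1 in young libraries, which in part goes against the list. Of 10 germline genes known to be unmethylated in sperm, 4 were measured, with summed levels of 69.8% and 81.4% in old and 64.7% to 83.5% in young libraries. Over the 5 libraries Ddx4 was at 72.9% to 89.6%, Sycp3 at 26.5% to 62.6%, Asz1 at 16.3% to 53.8% and Tdrd1 at 11.9% to 39.3%. In each library 0 or 1 of the 4 was under 20%, which goes against the list. Epididymal and leukocyte genes were measured at 1 start each, Spint4 and Ptprc, both above 80% in every library. The part of other cells in any level was not tested.

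Most of the promoters were rich in CpGs. A start was given for 25 of the 41 genes in RefSeq's table of build GRCm38.p6. The 250 bases before it held a median of 18 CpGs (all 27025 genes: 6), with 65.2% G+C (all genes: 52.0%). At least 15 CpGs stood in 18 of the 25 (72%), against 27.5% of all genes. The GC box GGGCGG, on either strand, was present in 68% of the 25 and in 33.0% of all promoters, CCAAT in 48% and 34.5%, and TATAAA in 8% and 13.0%. The following 4 are shown because Foxa1 and Tbx18 had the most promoter CpGs listed, Sox2 is a CpG-dense promoter with none listed, and Sox6, with 9 CpGs, had the most reads around its start. Capitals mark CpGs.
Foxa1, chr12:57546112-57546361, minus strand: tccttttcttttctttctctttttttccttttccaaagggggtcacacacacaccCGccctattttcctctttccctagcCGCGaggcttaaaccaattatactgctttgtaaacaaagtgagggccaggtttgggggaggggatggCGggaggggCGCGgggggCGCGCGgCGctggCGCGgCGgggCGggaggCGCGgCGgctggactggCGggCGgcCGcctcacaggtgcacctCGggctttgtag
Tbx18, chr9:87731261-87731510, minus strand: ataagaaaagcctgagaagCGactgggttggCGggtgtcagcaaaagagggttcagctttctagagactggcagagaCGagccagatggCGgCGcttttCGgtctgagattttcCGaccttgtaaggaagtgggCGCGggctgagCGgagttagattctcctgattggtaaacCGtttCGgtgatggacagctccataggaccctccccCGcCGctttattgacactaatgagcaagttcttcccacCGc
Sox2, chr3:34649745-34649994, plus strand: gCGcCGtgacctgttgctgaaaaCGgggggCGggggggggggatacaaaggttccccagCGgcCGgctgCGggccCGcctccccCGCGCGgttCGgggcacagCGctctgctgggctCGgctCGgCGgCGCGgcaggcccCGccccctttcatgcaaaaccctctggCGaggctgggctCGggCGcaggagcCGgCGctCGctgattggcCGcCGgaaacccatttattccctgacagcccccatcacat
Sox6, chr7:116038745-116038994, minus strand: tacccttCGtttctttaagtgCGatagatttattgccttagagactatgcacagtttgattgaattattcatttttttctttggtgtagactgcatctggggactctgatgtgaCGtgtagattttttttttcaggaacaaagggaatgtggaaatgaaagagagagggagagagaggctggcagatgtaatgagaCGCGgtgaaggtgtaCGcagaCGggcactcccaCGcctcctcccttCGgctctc

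In Foxa1, a pioneer factor of endoderm, liver and prostate, 13 of the 21 promoter CpGs shown were listed, and 3 of 177 reads were methylated, a level of 1.69% (95% Wilson interval 0.578% to 4.86%). In Tbx18, a regulator of the ureter and the sinus node, all 15 were listed, only by the 2 old libraries, and 2 of 107 reads were methylated (1.87%, interval 0.514% to 6.56%). Such intervals cover counting error only. Here and below, a read is counted at each CpG that it covers. Counts within a gene are thus not independent, so intervals and limits for counts of 0 may be too narrow. Outside these 2 genes, 7 of the promoter CpGs of the other 23 were listed. In all, 35 of 434 CpGs (8.06%) were listed in any library, against 18.8% over all promoters. This share depended on CpG content: over all genes it was 54.1% in promoters with 0 to 4 CpGs and 8.73% in those with 20 or more. In 18 of the 25 promoters no CpG was listed, so no level is given for them.

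Around the start, in a window of 1000 bp on either side, most of the listed genes had little methylation. With the reads of all 5 libraries summed, 21 of the 25 windows had 20 reads or more, and 20 of these were under 20% (95.2%), with a median of 2.70%. Over all genes 31.0% of such windows were under 20%, and over genes with 15 or more promoter CpGs 73.1%. No test was made of these differences. Foxc1, which patterns the eye and skull, was at 0.422% of 474 reads, and Gata3, which directs T helper, mammary and kidney development, at 0.793% of 1639 reads. Sox11, a factor of immature neurons, was at 0.658% of 152 reads, Foxd3, a factor of pluripotent cells and neural crest, at 0.769% of 130, and Twist1, a factor of cranial mesenchyme, at 2.70% of 259. T, which specifies mesoderm and notochord, had 0 methylated of 61 reads, which allows a level of up to 4.92%. Hand2 (heart and limb) was at 4.83% of 145 reads and Eomes (trophoblast and early mesendoderm) at 2.50% of 80. Gata2 (blood stem cells) was at 6.82% of 132 and Sox21 (neural progenitors) at 6.45% of 124. Of the genes named here, only Gata3, with 10, and Twist1, with 1, had common CpGs in the window. In the others each library read its own CpGs. Old replicate 2 listed none in Sox11, Foxd3, Gata2 and Eomes, and young replicate 3 none in Sox11. T had none in young replicates 1 and 2, and Hand2 none in young replicate 2. Young replicate 1 gave 256 of the 474 Foxc1 reads. Gata2 was at 1.23% of 81 reads in young replicate 1 and 23.3% of 30 in young replicate 3. Hand2 was at 16.7% of 30 reads in old replicate 1, with 0 methylated of 57 in old replicate 2.

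The exceptions were Tbx4, Foxa2 and Sox6. For Tbx4, the hindlimb and lung factor, the start in the table lies 10398 bp inside the annotated span, and its window was at 78.8% on 33 reads. Sox5, Gata3, Sox6, Foxa1, Gata5 and Eomes also start inside theirs, by 835181, 9353, 2032, 1918, 824 and 3 bp. At the annotated ends Tbx4 was at 26.95% of 512 reads and Sox6 at 9.97% of 361. Gata3 was there at 21.2% of 66, Foxa1 at 11.1% of 99 and Gata5 at 11.6% of 69. Eomes was there at 2.50% of 80, and Sox5 had no reads. Foxa2, a partner of Foxa1 in the endoderm, was at 15.6% of 109 reads at its most upstream start, and had 0 methylated of 12 and of 43 reads at the 2 starts downstream. Sox6, which works with Sox5 and Sox9 in cartilage, was at 13.9% of 3995 reads. It has 6 starts in the table: the next one downstream was at 2.25%, and the other 4, whose promoters hold 1 or 2 CpGs, were at 96.0% to 98.0%. The start at 2.25% was read in both old libraries and in young replicate 1, with no reads in the other 2 young ones.

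The strand of the 16 genes with no listed start is not given in the tables used here, so both ends were read. At the less methylated end, which was picked by its level, 12 of the 16 were under 10% (75%), with a median of 2.91%. Picking the end by level lowers these values in itself. In all 46577 genes with 20 reads or more at an end, picked in the same way, 13.4% were under 10% and the median was 75.5%. They included Foxc2 (lymphatic vessels) at 0.741% of 135 reads, Wt1 (kidney and gonad) at 0.735% of 136 and Tbx3 (limb, heart and mammary gland) at 1.08% of 650. Hand1 (heart and placenta) was at 3.72% of 537 and Sox17 (endoderm and arteries) at 3.72% of 296. The 4 at 20% or more were Sox7 (20.2%), Sox10 (28.6% of 35 reads), Tbx5 (55.9% of 34 reads) and Gata4 (57.1% of 49 reads). Sox10 is the neural crest factor, Sox7 an endothelial one, and Tbx5 and Gata4 act together in the heart.

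Only 4 genes had 3 or more common CpGs at the start, so that the same CpGs could be set side by side. Gata3, with 10 CpGs, was at 0% in both old libraries and at 0%, 0% and 0.448% in the young ones. The 0% values allow up to 1.96% to 2.44% in the old and 1.61% to 1.85% in the young libraries. Sox6, with 20 CpGs, was at 14.9% and 13.9% in old and at 16.9%, 10.4% and 16.1% in young libraries, and the old values lay inside the young range. Tbx18, with 4 CpGs and 25 to 61 reads, was at 11.5% and 7.41% in old and at 10.3%, 12% and 14.3% in young libraries. Foxa1, with 3 CpGs and 20 to 29 reads, was at 5.00% and 0% in old and at 0% in all 3 young libraries. The groups overlapped in all 4 (background of starts without overlap: 15.1%). None was called between the ages by the quasi-binomial test (background 0% of 4108 starts), 0 had an unadjusted p under 0.05 (background 2.14%, 88 starts), and the smallest was 0.199. limma on log2 odds also called 0, with 147 of all starts and none of the 4 under an unadjusted 0.05.

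**Figure D1:**
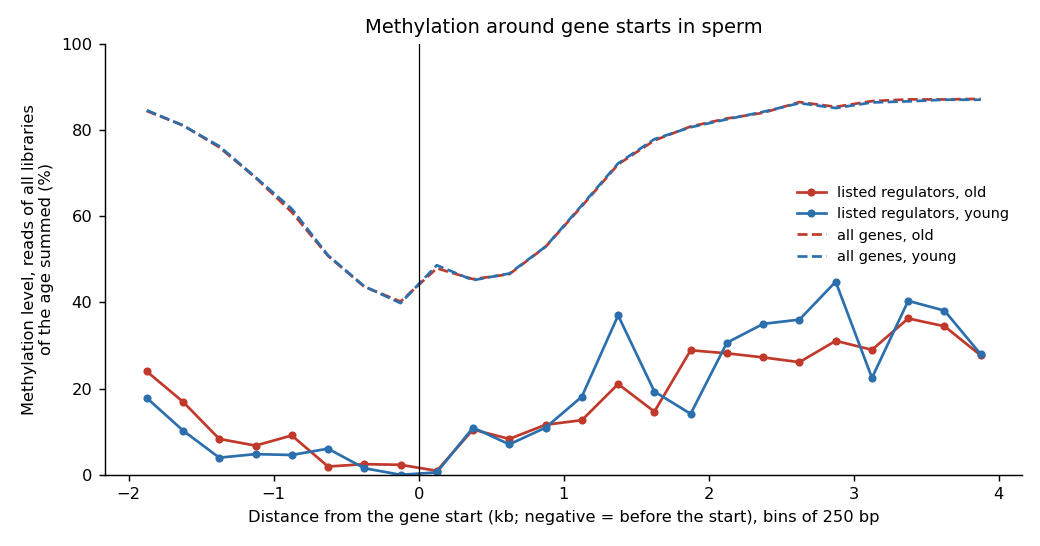
Methylation level (y axis, %) against distance from the gene start (x axis, kb, 250-bp bins) for the 25 listed genes with a start (solid lines) and all 27025 genes (dashed), with reads summed over the 2 old (red) and 3 young (blue) libraries and every listed CpG used. The solid lines lie under the dashed ones in every bin, and the solid lines of the ages cross.

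Compared with all genes, the little-methylated stretch was wide. In the plot of level by distance, the 25 genes were at 1.54% in the 250 bp before the start and at 0.692% in the 250 bp after it, where all genes were at 40.0% and 48.3%. In the bin that begins 2000 bp before the start the listed genes had reached 21.3% and all genes 84.6%. In the bin that begins 3750 bp after it they were at 27.9% and all genes at 87.1%. The bins next to the start rest on 324 and 289 reads from 7 genes each, and the ages are read through different CpGs there.

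Over the whole regions, a larger share of CpGs lay under 20% in these genes than in the genome. Among the 5559 CpGs listed in at least 1 old and 1 young library, 15.9% were under 20%, against 1.77% of all 7296290 such CpGs. The Fox genes had the most, 65.1% of 195 CpGs, followed by Gata with 33.8% of 548, the 4 other genes with 30.8% of 240, T-box with 22.2% of 1228 and Sox with 6.75% of 3348. The order by 1 kb tiles with 3 or more common CpGs was the same, 40% of 5, 26.3% of 19, 28.6% of 7, 17.0% of 47 and 6.11% of 131, save that the 4 other genes stood above Gata. The place of Sox rested on the long genes Sox5 and Sox6. Without them 43.9% of 346 Sox CpGs and 30.8% of 13 Sox tiles were under 20%. In each case this was below Fox and above the other families, but those kept their own long genes, such as Tbx15 and Wt1. Among the 4 other genes Wt1 held 149 of the 240 CpGs, and 11 of the 74 under 20%. The order of the families thus depends on which long genes are kept, and the tile shares rest on few tiles.

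**Figure D2:**
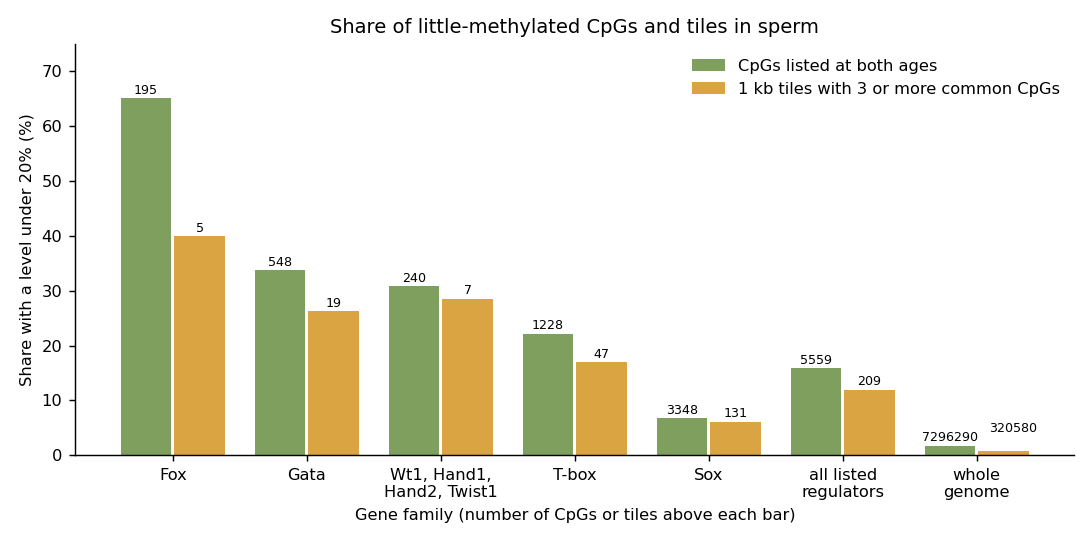
Share (y axis, %) of CpGs listed at both ages (green) and of 1 kb tiles with 3 or more common CpGs (yellow) with a level under 20%, by family, for all listed regulators and for the whole genome; numbers above the bars count CpGs or tiles. The Fox bars are highest, at 65.1% and 40%, and the genome bars lowest, at 1.77% and 0.731%.

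Of the 209 tiles in 25 of the genes, 25 (11.96%) were under 20%, 26 were between 20% and 80% and 158 were over 80%. Over all 320580 tiles 0.731% were under 20%. The long genes Sox5 and Sox6 held 35 and 83 tiles, and without them 21 of 91 (23.1%) were under 20%. The 25 low tiles lay in 15 genes: 17 inside a gene, 2 across a gene end and 6 in the flanks. Their mean level was 9.10% and 7.22% in old libraries and 9.31%, 7.81% and 10.4% in young ones. The tiles over 80% averaged 94.9% and 94.2% in old and 95.02%, 95.96% and 93.2% in young libraries. Young replicate 3 was thus the highest library in the low tiles and the lowest in the high ones, here as over the genome (9.85% and 92.7%).

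Region levels ran from 22.5% in Gata6 to 94.5% in Tbx20. The median of the 15 measured regions was 66.1%, against 92.6% for all 20465 gene regions, and 11 of the 15 (73.3%) were under 80%, against 16.9% of all. Among 49 relatives outside the list, such as Foxp1, Foxo3 and Gata1, 17 were measured, with a median of 92.3%. Of those 17, Sox4, at 10.7%, and Foxh1, at 74.5%, were under 80%. In these bulk libraries a level is the share of methylated reads, and a region that mixes bare and methylated stretches has a middle level.

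**Figure D3:**
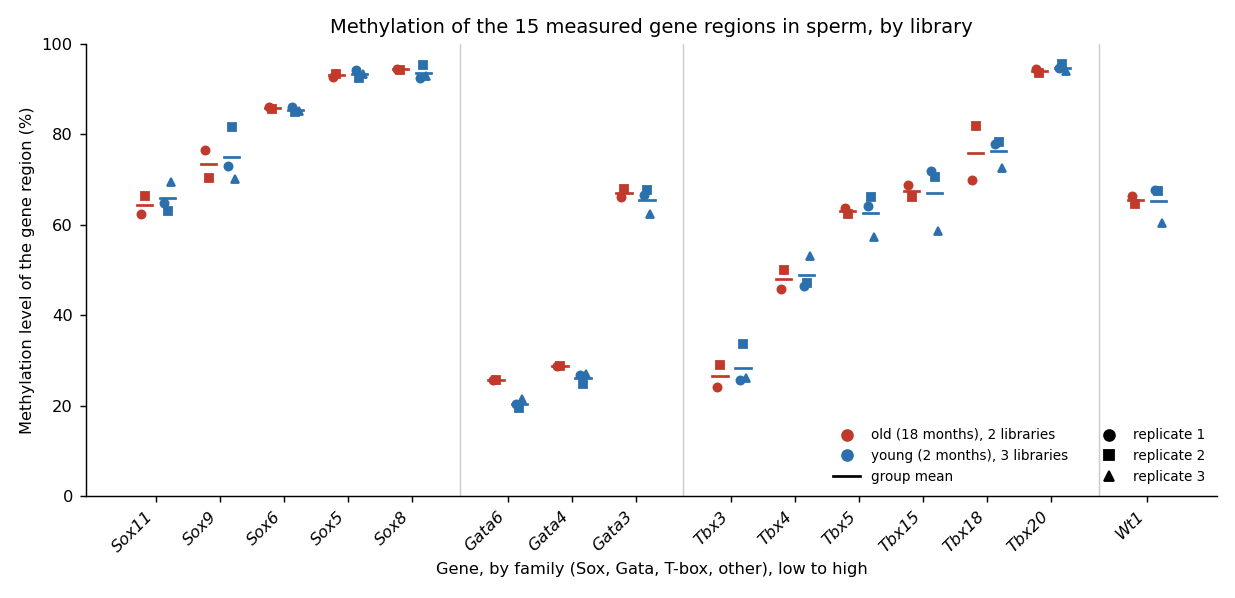
Methylation level of the 15 measured gene regions (y axis, %), by family and from low to high (x axis), with each old library in red to the left and each young library in blue to the right, marked by replicate; lines are group means. Gata6 and Gata4 are lowest with Tbx3, and only in Gata6 and Gata4 do the ages separate.

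In the Sox family the 5 measured regions ran from 65.3% in Sox11 to 93.9% in Sox8. Only Sox8 and Sox5 stood above the median of all gene regions, 92.6%. Sox8, a partner of Sox9 in the testis, was at 94.5% and 94.3% in old and at 92.4%, 95.4% and 92.9% in young libraries. All 15 common CpGs of Sox8 lay near its gene end of lower coordinate, which is not the end where the gene starts. The Sox8 start window held no common CpG and was at 4.17% of 48 reads, all from the old libraries. Sox5, a cartilage and brain factor without an activation domain, averaged 93.1% ± 0.486 in old and 93.4% ± 0.883 in young libraries (SD, n = 2 and 3). Sox6 averaged 85.8% ± 0.367 in old and 85.4% ± 0.623 in young libraries. The order of Sox8 and Sox5 is within their spread. Sox9, the testis-determining and cartilage factor, was at 76.5% and 70.3% in old and at 73.1%, 81.7% and 70.1% in young libraries, with a young range of 11.6 points. Sox11 was lowest, at 62.5% and 66.5% in old and at 64.9%, 63.1% and 69.5% in young libraries. In each of these genes the ages overlapped by summed reads.

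With fewer or no common CpGs, the other Sox genes could be read only over every listed CpG, with the libraries summed. The neural and stem cell factors Sox2 and Sox1 were at 8.09% and 11.3%, and Sox14 at 10.3%. Sox17 was at 22.3%, Sox21 at 24.7% and Sox18 (lymphatic vessels) at 30.4%, while Sox7 was at 65.7% and Sox10 at 82.5%. The Fox family had no region with 10 common CpGs. Over every listed CpG its 9 genes ran from 6.62% in Foxd3 to 55.5% in Foxf2, with a median of 22.5%. Between these lay Foxa1 at 8.68%, Foxc1 at 13.8%, the ovary factor Foxl2 at 15.3%, Foxc2 at 22.5%, the thyroid factor Foxe1 at 29.1%, Foxa2 at 29.8% and the lung and gut mesenchyme factor Foxf1 at 30.0%.

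The Gata family held the lowest measured regions. Gata6, a factor of extraembryonic endoderm and heart whose gene spans chr18:11052510-11085636, was at 25.6% and 25.7% in old and at 20.3%, 19.5% and 21.4% in young libraries. Both old libraries stood above all young ones. Gata4, spanning chr14:63198914-63271712, was at 28.7% and 28.8% in old and at 26.7%, 24.7% and 26.99% in young libraries, again without overlap. Gata3 was at 66.0% and 67.9% in old and at 66.7%, 67.8% and 62.3% in young libraries, which overlapped. Over every listed CpG, Gata2 was at 51.8% and Gata5, of the heart and gut, at 63.7%.

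The 6 measured T-box regions ran from 27.6% to 94.5%. Tbx3 was at 24.0% and 29.0% in old and at 25.6%, 33.5% and 26.0% in young libraries. Tbx4 averaged 47.9% ± 2.96 in old and 48.9% ± 3.69 in young libraries (SD, n = 2 and 3). Tbx5, the forelimb and heart factor, was at 63.8% and 62.3% in old and at 64.1%, 66.3% and 57.4% in young libraries. All 3 overlapped between the ages. Tbx15, a factor of skeleton, skin pattern and fat, was at 68.8% and 66.2% in old and at 71.9%, 70.7% and 58.6% in young libraries, with a young range of 13.3 points set by young replicate 3. Tbx18 averaged 75.9% ± 8.38 in old and 76.2% ± 3.17 in young libraries. Tbx20, a heart factor, was at 94.5% and 93.5% in old and at 94.7%, 95.6% and 94.1% in young libraries, so its gene body was methylated although its start window was at 4.11% of 73 reads. Over every listed CpG, Tbx2 was at 14.1%, Eomes at 59.4% and T at 78.4%.

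Of the 4 other genes Wt1 was measured, at 66.3% and 64.5% in old and at 67.6%, 67.4% and 60.5% in young libraries. Its old values lay between the young ones. Over every listed CpG, Hand2 was at 13.2%, Hand1 at 13.3% and Twist1 at 29.4%. The regions of Gata6, Gata4 and Tbx3 stood below those of Tbx4 in every library, and Sox5, Sox8 and Tbx20 above those of all others. In the middle, the order of Tbx5, Wt1, Sox11, Gata3 and Tbx15 was within the spread of the libraries.

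Tiles with almost no methylation and highly methylated ones stood in the same gene. In Sox6 the tile 6244 bp downstream of the first start, at chr7:116032001-116033000, had 0 methylated of 343 reads in all 5 libraries, which allows up to 0.875%. The tile 3244 bp downstream, at chr7:116035001-116036000, was at 56.4% and 54.5% in old and at 57.9%, 50.6% and 60.7% in young libraries. It lay between tiles at 13.0% and, next to the start, at 15.3% and 15.8%. In all, 75 of the 83 Sox6 tiles were over 80%.

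**Figure D4:**
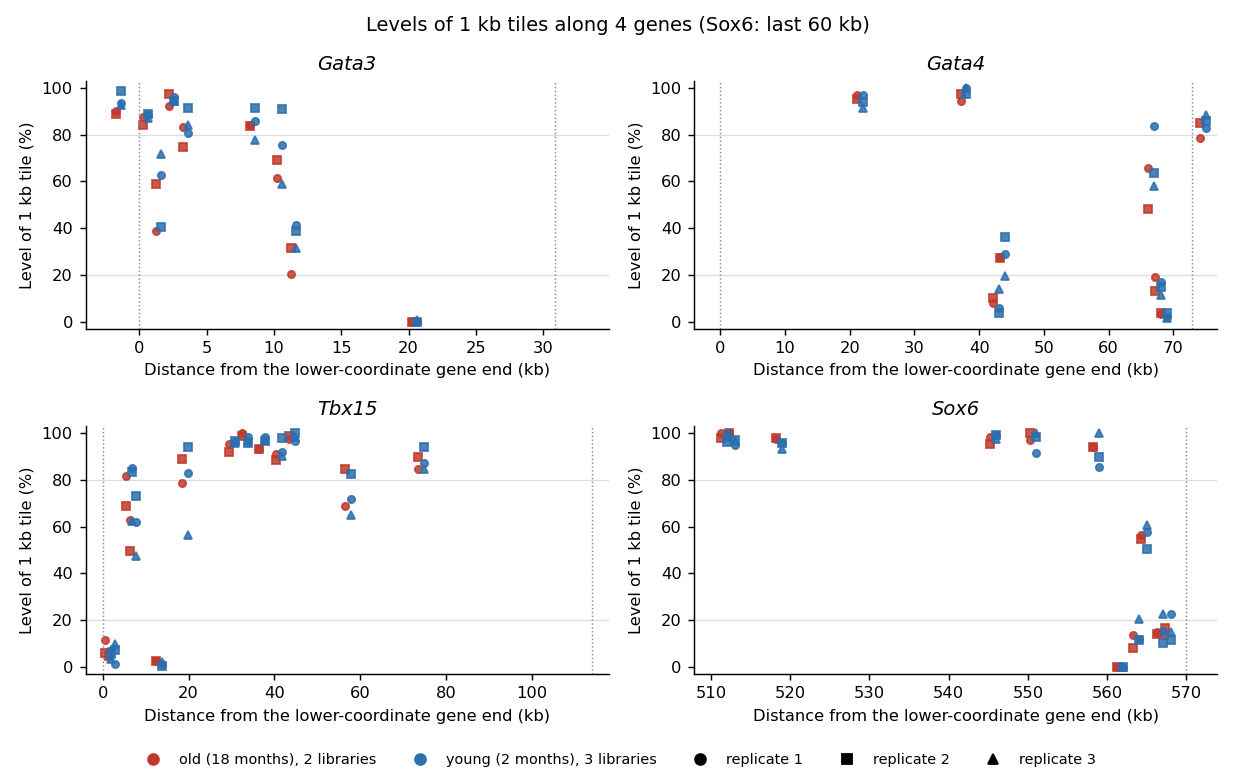
Level of each 1 kb tile with 3 or more common CpGs (y axis, %) along Gata3, Gata4, Tbx15 and the last 60 kb of Sox6 (x axis, kb from the gene end of lower coordinate; dotted lines are the gene ends), per old (red) and young (blue) library, with the ages set slightly apart sideways. Each of the 4 genes has tiles under 20% and tiles over 50%.

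In Tbx15, 27 CpGs inside the gene at chr3:99253001-99254000 were at 2.40% and 2.45% in old and at 1.33%, 0.316% and 2.13% in young libraries. A tile between it and the low gene end, at chr3:99247001-99248000, was at 62.7% and 49.6% in old and at 62.1%, 73.0% and 47.6% in young libraries. Gata4 had a low stretch of 18 CpGs at chr14:63241001-63242000, at 8.08% and 10.02% in old and at 5.60%, 3.70% and 14.1% in young libraries, and another near its upper end, at 2.79% over all libraries. In Gata3 the tile nearest the start was at 0.138% of 726 reads, while tiles at chr2:9867001-9868000 and chr2:9868001-9869000 averaged 71.3% and 32.7%. In Gata6 the 29 CpGs of chr18:11059001-11060000, inside the gene, were at 7.07% and 9.18% in old and at 3.92%, 4.09% and 9.58% in young libraries. The ages overlapped in the Gata6 tile, the Gata4 tile of 18 CpGs and the Sox6 tiles, and did not in the Tbx15 tile of 27 CpGs, where old was higher.

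The study set sperm of the ages side by side to look for differently methylated regions. A quasi-binomial logistic model of the methylated and unmethylated reads, with a dispersion moderated over all features, and Benjamini-Hochberg adjustment over all of them, was fitted to every gene region, 1 kb tile and start window. A feature was called at an adjusted p below 0.05 with 10 points or more between the ages. No listed gene was called, nor any gene region at all: 0 of 20465, a background of 0%. The smallest adjusted p was 1 after rounding. At an unadjusted p under 0.05, 1 of the 15 regions passed, higher in old (background 1.52%, 312 regions; 0.953% higher in old). limma on log2 odds also called 0, with 534 regions under an unadjusted 0.05 and none of the 15. Among the 15, old exceeded young in 8 (background 53.7%), and the ages did not overlap in 2, both higher in old (background 13.6%; 7.43% higher in old). The differences in region level ran from -1.87 points in Tbx3 to 5.27 points in Gata6, with a median of 0.275 points (all regions: 0.103).

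The region under an unadjusted 0.05 was Gata6, at 25.7% ± 0.0557 in old and 20.4% ± 0.951 in young libraries (SD). The difference of 5.27 points had p = 0.00829 and adjusted p = 1 by the quasi-binomial test, and was higher in both old libraries. Gata4 differed by 2.64 points, at 28.8% ± 0.0927 in old and 26.1% ± 1.24 in young libraries, with an unadjusted p of 0.120 in the same moderated fit over all regions, and adjusted p = 1 by the quasi-binomial test. The weight given to each CpG changed both differences. In Gata6, CpGs under 20% took 79.3% and 80.5% of the reads in old and 82.1%, 82.8% and 85.8% in young libraries, which did not overlap. How many of all gene regions separate in this share of reads was not determined. With each CpG weighing the same, Gata6 was at 29.5% and 29.6% in old and at 28.0%, 26.0% and 32.4% in young libraries, which overlapped, a difference of 0.766 points. Over the 104 CpGs listed at both ages, paired CpG by CpG, it was 0.0535 points.

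**Figure D5:**
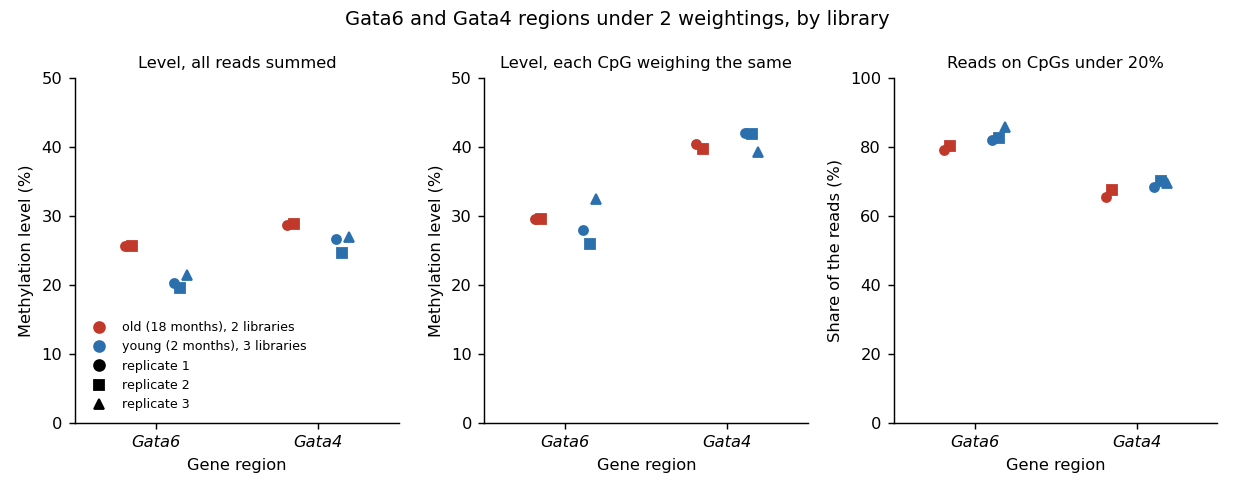
Gata6 and Gata4 regions in each old (red, left) and young (blue, right) library: level with all reads summed, level with each CpG weighing the same, and share of reads on CpGs under 20% (y axes, %). The ages separate with all reads summed and in the share of reads, and overlap with equal weights.

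In Gata4 the reads on CpGs under 20% made up 65.5% and 67.5% in old and 68.5%, 70.1% and 69.8% in young libraries, also without overlap, and with equal weights the difference was -0.987 points. Gata3 turned round in the same way: 1.36 points by summed reads and -4.37 with equal weights, at 62.1% and 65.8% in old and at 68.3%, 71.8% and 65.0% in young libraries. All 9 Gata3 tiles had a lower mean in old (background 47.2% of all tiles), and 7 to 9 of them when a library was left out, fewest without old replicate 1. These tiles share the same libraries and are not independent. The ages did not overlap in 1 of the 9, and the smallest differences were -0.0842 and -0.168 points. Wt1 differed by 0.275 points by summed reads and by -7.29 with equal weights. With equal weights it was at 57.4% and 62.4% in old and at 67.9%, 71.0% and 62.6% in young libraries, which then did not overlap. Sox5 and Sox11 did not overlap either with equal weights, lower in old by -0.212 and -2.10 points. The share of all gene regions without overlap, at equal weights or in the reads on CpGs under 20%, was not determined. The part of coverage in these differences was not tested.

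For the other genes with the widest differences or spread the sign turned when either of 2 libraries was left out. Tbx3 differed by -1.87 points, by 0.636 without old replicate 1 and by 0.692 without young replicate 2. Sox9 differed by -1.55 points, by 1.53 without old replicate 2 and by 1.80 without young replicate 2. Tbx15, Tbx5 and Wt1 differed by 0.420, 0.467 and 0.275 points with all libraries. Without old replicate 1 these differences were -0.895, -0.290 and -0.630 points, and without young replicate 3 they were -3.79, -2.13 and -2.07 points. In Gata3 the sign turned without young replicate 3, at -0.266 points. In Gata6 and Gata4 it held without each library in turn. None of Tbx3, Sox9, Tbx15, Tbx5, Wt1 and Gata3 had an unadjusted p under 0.05 in the quasi-binomial fit over all regions with all libraries.

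Of the 209 tiles, 0 were called (background 0% of 320580) and 3 had an unadjusted p under 0.05 by the quasi-binomial test (background 3.1%, 9951 tiles), 1 higher in old (background 1.78%) and 2 lower (background 1.32%). limma on log2 odds called 0 as well, with 8 of the 209 and 13724 of all tiles under an unadjusted 0.05. The ages did not overlap in 35 of the 209 (background 17%), with old higher in 16 (background 8.82%) and lower in 19 (background 8.16%), and old was higher in 94 and lower in 114 (old higher in 52.5% of all tiles). The widest of the 3 was in Wt1, at chr2:105135001-105136000, on 3 CpGs and 19 to 37 reads a library. It was at 60.9% and 81.1% in old and at 96.9%, 94.7% and 92.9% in young libraries, a difference of -23.8 points (p = 0.00898 in the fit over all tiles; quasi-binomial, adjusted p = 1). Both old libraries lay below all young ones. Without old replicate 1 the difference was -13.7 points, with an unadjusted p of 0.0811 in the same fit.

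The second was the Gata3 tile at chr2:9868001-9869000, with 10 CpGs and 180 to 391 reads, at 20.4% and 31.7% in old and at 41.4%, 38.9% and 31.5% in young libraries (-11.2 points, p = 0.0249, adjusted p = 1, quasi-binomial). The ages overlapped by 1 library. The difference was -5.57 points without old replicate 1, -16.9 without old replicate 2 and -4.74 over every listed CpG. A binomial model that allows no spread between replicates called this tile, the only one of the 209, with 700 calls over the genome. The third was in Sox6 at chr7:115668001-115669000, with 3 CpGs, at 100% and 100% in old and at 93.3%, 92.9% and 97.7% in young libraries (5.36 points, p = 0.0242, adjusted p = 1, quasi-binomial).

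By the size of p, the next tiles higher in old sperm were 3 in Sox6, starting at bases 115552001, 115728001 and 115762001, by 4.41, 3.5 and 6.38 points, and 1 in Tbx18, starting at base 87710001, by 3.42 points. The next lower ones were 2 in Sox6, starting at bases 115892001 and 115744001, by -5.19 and -6.36 points, and 1 in Tbx15, starting at base 99270001, by -2.50 points. All 7 had levels over 80% in every library, rested on 3 to 7 CpGs and had unadjusted p-values of 0.0547 to 0.0846 in the quasi-binomial fit over all tiles. The tiles were picked separately in each direction, and Sox6 held 83 of the 209. Its place on both sides is therefore no result about the gene.

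Over every listed CpG more genes were covered, but each library then reads its own CpGs. The ages did not overlap in 8 of 40 genes (background 16.1% of 46396 regions), 6 with old higher (background 7.27%) and 2 with old lower (background 8.8%). Foxa2 was at 13.6% and 19.4% in old and at 28.6%, 46.3% and 48.7% in young libraries. On the 6 CpGs listed at both ages the Foxa2 difference was 4.49 points, the other way. Foxl2 was at 21.3% and 24.0% in old and at 3.62%, 7.94% and 5.71% in young libraries, and at -2.04 points on the 16 CpGs listed at both ages. Over the 35 genes with at least 10 such CpGs, the paired difference had a median of 0.109 points, from -6.42 in Foxc2 to 6.34 in Sox8, with 19 above and 16 below 0.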

How the data were processed

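Genomic DNA of mouse sperm, 2 old and 3 young libraries, was bisulfite-sequenced. The submitters' processing notes name methylKit 1.4.0, Bismark 0.16.3, Trim Galore 0.4.3 and mm10 (GRCm38); settings are, like duplicate removal, not given in the sources used here. Per the file headers, a deposited row holds 1 cytosine, its read count and the percent of C and of T among those reads; the lowest deposited count is 5. Percent times coverage gave whole reads for 100% of cytosines. Incomplete conversion, C-to-T variants and near-identical copies were not separated.

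Strands were merged, and CpGs covered 5 times or more in every library, and in none among its top 0.1% by coverage, were used. Reads were summed over RefSeq gene spans with 2000 bp flanks (10 or more CpGs), 1000-bp tiles (3 or more) and windows of 1000 bp around starts (3 or more). A read that covers several CpGs was counted at each of them. A quasi-binomial logistic model was fitted, its dispersion moderated by limma 3.58.1's squeezeVar method with a floor of 1. Its p-values were adjusted by Benjamini-Hochberg over all features. The model was tried on simulated data, and its recovery rate is not given here. A count of 0 called therefore does not show that the ages are alike. The 10 ways to split the libraries allow an exact p of 0.1 at the smallest. Python 3.11.15, numpy 2.4.6 and R 4.3.3 were used. Binomial, limma, coverage, filter, weighting and leave-one-out alternatives were tried. Paired CpGs and gene ends were added after the data were seen.

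The genes, lists and relatives were chosen with earlier results of these data known. Library values are given for the lowest and highest gene of each family, the 5 largest differences, those with an unadjusted p under 0.05, the 5 tiles each way with the smallest p and the 5 widest young ranges.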

Additional observations from a re-analysis of the deposited data

How the results depend on the processing

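No gene of the list was called in any setting except the Gata3 tile at base 9868001 in the binomial model with no spread between replicates (adjusted p = 0.00968). That model called 53 gene regions, 36 start windows and 700 tiles, and by construction its errors are smaller. Without young replicate 3, 2 gene regions were called, so leaving out a library gave 0 to 2. The labels do not say whether the replicate numbers pair the samples. Same-numbered libraries deviated with r = 0.00950 for number 1 and -0.0200 for number 2. With 2 old libraries, whose deviations from their mean mirror each other, these values cannot settle it. A replicate block gave 5 gene regions, none of them listed, and 0 tiles and start windows. The share of tiles under 20% in the listed genes, 11.96%, was 11% to 11.96% when a library was left out, 12.9% with 500-bp and 10.5% with 2000-bp tiles, 16.1% with 5 CpGs a tile, 6.70% with limits of 10% and 90%, 7.29% with at least 10 reads and 8.51% with at least 20. The mean difference at the 4 starts, -0.122 points, ran from -1.37 to 1.13 without a library and was -3.01 over the 2 starts measured at 500 bp.

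The sign of the region difference turned in 27 of 114 alternatives over 8 genes, and in none for Gata6. Leaving out a library gave -4.38 to 0.692 points in Tbx3, -4.64 to 1.80 in Sox9, -0.266 to 2.44 in Gata3, -3.79 to 2.83 in Tbx15, -2.13 to 2.30 in Tbx5 and -2.07 to 1.51 in Wt1. With each CpG weighing the same it was -0.987 in Gata4, -4.37 in Gata3 and -7.29 in Wt1. Without flanks Wt1 was at -5.41, and with 5000-bp flanks Tbx5 at -0.120. Sox9 was at 0.281 with at least 10 reads; with at least 20, Sox9 was at 0.0339, Gata3 at -0.718 and Tbx15 at -0.900. Over every listed CpG Tbx3 was at 0.928, Sox9 at 0.657, Gata3 at -3.27 and Wt1 at -1.12, and over paired CpGs Gata3 was at -1.82, Tbx5 at -0.300 and Wt1 at -1.12. The Gata6 difference was 3.59 with at least 10 reads and 9.59 over every listed CpG. At this depth 18 of the 25 promoters had no listed CpG.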
